A study of Mus musculus with 2 samples.

Results

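Mir744, Mir652, Mir151, Mir324 and Mir330 are mouse microRNA (miRNA) genes that lie inside protein-coding genes with broad expression and that held many small RNA reads in the hippocampus. These 5 genes were selected on measured levels, since all are among the 20 annotated miRNA genes with the highest mean CPM of 2202 in the table, where CPM is the count per 1000000 sense reads on annotated miRNA genes. Their levels and ranks are therefore given as a description, and they leave out reads with several places in the genome. Total RNA came from hippocampus (the labels write layer of hippocampus) of female mice aged 36 days of the strain B6CASTF1/J, a first-generation cross of C57BL/6J with CAST/EiJ. Inserts under 30 bases were sequenced. The 2 libraries, numbered as biological replicates 1 and 2, form 1 group, and the labels name no other genotype, transgene or treatment. Both carry the same donor entry under separate biosample entries, so separate animals are not established and their spread could be technical.

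A miRNA is cut from a hairpin in a longer transcript by the nucleases Drosha and Dicer, and 1 strand of the resulting duplex guides an Argonaute protein to messenger RNAs. Pairing rests mainly on the seed, bases 2 to 8 of the mature strand. A hairpin in an intron can be made from the transcript of the gene around it, its host gene, so an intronic miRNA may follow the promoter of its host. In mouse hippocampus miR-324-5p is known to repress the potassium channel Kv4.2, and primary transcripts of miR-151 are known as targets of A-to-I editing in brain. miR-744 was described in mouse cells as a miRNA that raises cyclin B1.

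The mature strands are shown because they carry what each gene can target. Entries in RefSeq (build GRCm38.p6) matched 4 of the 5 genes, Mir744, Mir652, Mir324 and Mir330, and gave 8 mature strands, named 5p and 3p for the arm of the hairpin. They are written 5′ to 3′ with the seed in capitals.
miR-744-5p: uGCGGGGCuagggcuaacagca
miR-744-3p: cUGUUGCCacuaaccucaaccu
miR-652-5p: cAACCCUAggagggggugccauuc
miR-652-3p: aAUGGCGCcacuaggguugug
miR-324-5p: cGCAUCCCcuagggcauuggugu
miR-324-3p: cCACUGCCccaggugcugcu
miR-330-5p: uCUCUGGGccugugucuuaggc
miR-330-3p: gCAAAGCAcagggccugcagaga

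No seed was shared among these 8 strands. Of the 8 seeds, 6 occurred in no other gene among 1738 mature mouse strands in the table, in which 68.01% of strands have a seed that belongs to 1 gene. The seed of miR-330-5p also occurs in miR-326-3p, and that of miR-330-3p in miR-6240. Mir326, in an intron of Arrb1, had 858 CPM in replicate 1 and 538 CPM in replicate 2, against 9041 and 9945 CPM for Mir330. Mir6240 had 6 and 9 reads. The counts are per hairpin gene, so which of the arms was sequenced cannot be told from them.

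The stretch CUAGGG stands in miR-744-5p (bases 8 to 13), miR-652-3p (11 to 16) and miR-324-5p (9 to 14). It occurs in 12 of the 1738 mature strands (0.690%), read in the strand as written, and overlaps the seed by 1 base in miR-744-5p. Their genes, Mir744, Mir652 and Mir324, had the highest mean CPM among the 12, and the next, Mir3059, was at 87.9 CPM. The members were selected for high mean CPM, so their place at the head follows largely from that selection. These CPM are of the hairpin gene, not of the arm with the stretch. This stretch was picked after the sequences and levels were seen, and the match is a description of letters.

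The hairpin of Mir652, shown as the member whose CPM differed least between the libraries with sense totals as scale, has 98 bases and its mature arms are in capitals.
Mir652: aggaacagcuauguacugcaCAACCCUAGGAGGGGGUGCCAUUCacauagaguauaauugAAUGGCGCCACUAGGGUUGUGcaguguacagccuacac
It lies on the plus strand at chrX:142739000-142739097 (assembly mm10). Its predicted minimum free energy was -49.0 kcal/mol, or -0.50 kcal/mol per base, lower than in 83.7% of 1005 RefSeq hairpins. Per base the other hairpins were at -0.45 (Mir744), -0.43 (Mir330) and -0.41 (Mir324) kcal/mol, against a median of -0.44 over the 315 hairpins with at least 10 reads in each library. Stability of the fold thus ranged from above to below that of the detected hairpins. The mature arms reached 70.0% G and C in miR-324-3p, and 7 of the 8 exceeded the median of 52.2% over all mature strands.

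All 5 genes lie within a protein-coding gene on the same strand. This is also the reason for their grouping, so it is no finding. RNA of the host genes was not measured, and their broad expression is background knowledge. For scale, 969 of 2202 annotated miRNA genes (44.01%) and 5 of the other 15 genes among the 20 have such a host. Mir744 (ENSMUSG00000076460.1, chr11:65734733-65734832, minus strand) sits in intron 3 of 10 of Map2k4, a kinase of the JNK stress pathway, 359 bases after the exon before it. Mir652 (ENSMUSG00000076011.1) sits in intron 2 of 6 of Tmem164, the gene of a membrane protein, 12942 bases before the next exon of that transcript. Mir151 (ENSMUSG00000065612.1, chr15:73254815-73254882, minus strand) sits in intron 22 of 31 of Ptk2, the gene of focal adhesion kinase, which relays signals from integrins.

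Mir324 and Mir330 are placed differently. Mir324 (ENSMUSG00000065534.1, chr11:70012043-70012131, plus strand) lies in the last exon of Dvl2, a Wnt pathway gene. The exon is untranslated there, in 2 of the 7 annotated Dvl2 transcripts. On the opposite strand Mir324 lies within an intron of Acadvl, a gene of mitochondrial fatty acid oxidation. Mir330 (ENSMUSG00000065543.1, chr7:19181465-19181562, plus strand) lies in intron 1 of Eml2, a microtubule-associated protein gene. That intron has 485 bases, and the hairpin starts 0.295 kb from the start of the transcript. An exon of 1 of the 8 Eml2 transcripts overlaps it in part.

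**Figure D1:**
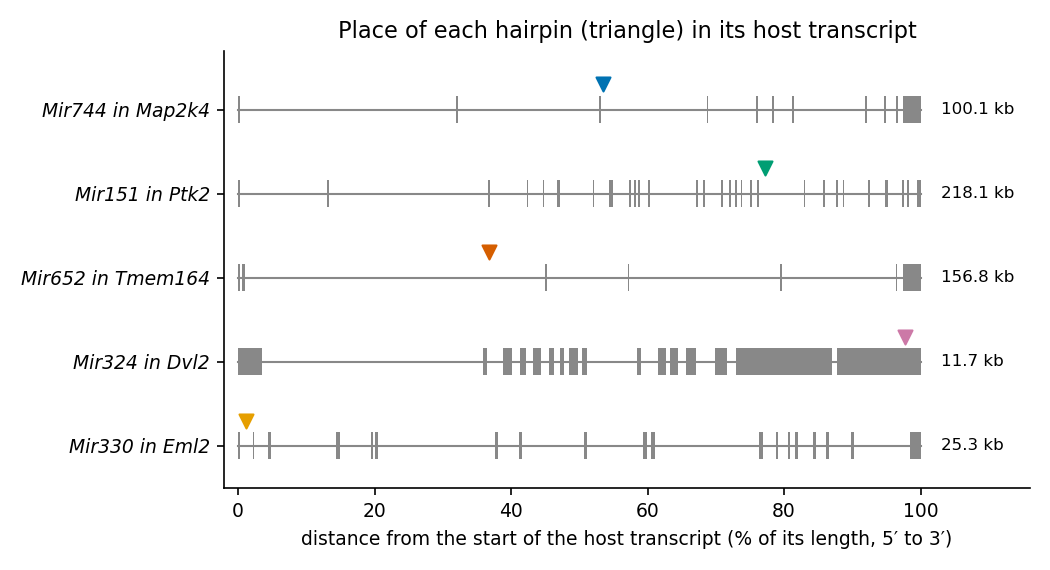
Place of each hairpin (triangle) along 1 protein-coding host transcript, from its start at 0 to its end at 100% of its length, with exons as grey boxes, introns as lines and the length in kb at the right. Mir330 is at 1.17% and Mir324 at 97.8% of the way along, and Mir652, Mir744 and Mir151 lie in long introns between 36.7% and 77.2%.

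The genes also stood alone in the genome. The nearest annotated miRNA gene was 31.2 kb away from Mir324, 94.6 kb from Mir330, 224 kb from Mir652, 667 kb from Mir744 and 1309 kb from Mir151. A distance over 10 kb was found for all 5, for 3 of the other 15 genes among the 20 and for 75.2% of all annotated miRNA genes. None of the 5 hairpins shared a stretch of 20 bases with another annotated miRNA hairpin, against 86 of the 399 genes that averaged 10 reads or more. Reads with several places in the genome were counted apart and made up 38.9% of the table in replicate 1 and 45.8% in replicate 2. How many of those came from these hairpins was not tested. All ranks and shares given here leave those reads out. With hairpins divided at the middle, 760 of the 2202 annotated genes share such a stretch in both parts, but 0 of the 20. Counts of genes with shared parts may be too low, so the members may rank higher than with all reads placed. The size of this effect was not tested. In GENCODE M21 transcripts the arms of Mir744 and Mir652 occurred only in their own gene, and those of Mir324 and Mir330 also in Dvl2 and Eml2. Exons of these hosts overlap the hairpins, wholly for Mir324 and in part for Mir330, so such hits need not be further copies. Mir744 and Mir652 lie in introns, which the host transcripts leave out.

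Sense reads on miRNA genes totalled 2928141 in replicate 1 and 3644157 in replicate 2. A count of 0 would allow 3 reads, or 1.02 CPM in replicate 1 and 0.823 CPM in replicate 2. Antisense reads at the 5 genes numbered 0 in replicate 1 and 3 in replicate 2, all at Mir324. In bulk tissue, fewer cells of a type and less RNA per cell cannot be told apart. Summed CPM of marker miRNAs differed between the libraries. Red blood cell markers (3 of 3 detected) were at 1176 CPM in replicate 1 and 339.7 CPM in replicate 2, and those of oligodendrocytes (3 of 3) at 5352 and 2536 CPM. Astrocyte markers (5 of 5) were at 16343 and 12013 CPM, with all 5 called higher in replicate 1. Endothelial and mural markers (3 of 3) were at 19436 and 15579 CPM, a sum led by Mir126a, while Mir143 (4740 and 6401 CPM) and Mir145a (180 and 209 CPM) were called higher in replicate 2. Those of neurons (7 of 11) were at 24506 and 30823 CPM, with 4 called higher in replicate 2 and 2, Mir138-1 (6059 and 3502 CPM) and Mir138-2 (4030 and 2291 CPM), in replicate 1. Choroid plexus markers (4 of 5) were at 1147 and 2661 CPM, mostly through Mir204 (593 and 2101 CPM), while Mir449a (124 and 80.4 CPM) was called higher in replicate 1 and Mir34c was not called. Those of microglia and leukocytes (3 of 4) were at 1546 and 1846 CPM, with 1 called higher in replicate 1 and 2 in replicate 2. Liver and muscle markers (2 of 6) were at 273 and 218 CPM, with Mir1a-1, Mir133a-1 and Mir133a-2 at 0. Neuronal Mir137 and Mir128-1, the most abundant of the 11 listed, were detected in both libraries. Those not detected were Mir124a-1 (8 reads in replicate 1 and 8 in replicate 2), Mir124a-2 (4 and 0), Mir124a-3 (4 and 1) and Mir9-2 (4 and 2). Both parts of these hairpins are shared with other miRNA genes, so their own counts are uncertain and do not show absence. The part of these lists in the ratios of the 5 genes between libraries was not tested.

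Mir744 was the most abundant of the 5. It held 111148 reads in replicate 1 and 139804 in replicate 2, at 37959 and 38364 CPM (mean 38161 ± 287, SD, n = 2). Its share of assigned reads was 3.796% (exact Clopper-Pearson 95% interval 3.77% to 3.82%) in replicate 1 and 3.84% (3.82% to 3.86%) in replicate 2. The libraries were thus nearly level, and Mir744 ranked 6 and 7 in them. Its neighbours in mean CPM were Mir127, of the imprinted Dlk1-Dio3 region, at 37656 and 46305 CPM, and Mirlet7e, of the let-7 family, at 28192 and 27320 CPM. Mir127 was above Mir744 in replicate 2 and below it in replicate 1.

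Mir151 and Mir652 came next. Mir151 had 38026 and 43621 reads, at 12986 and 11970 CPM in replicates 1 and 2 (12478 ± 719, SD, n = 2). Mir652 had 33378 and 41596 reads, at 11399 and 11414 CPM (11407 ± 10.9, SD, n = 2). Mir151 was above Mir652 in both libraries: Mir652 held 0.878 reads per read of Mir151 in replicate 1 (exact interval 0.865 to 0.891) and 0.954 in replicate 2 (0.941 to 0.966). Between them in mean CPM stood endothelial Mir126a, at 14516 CPM in replicate 1 and 8969 CPM in replicate 2. Mir132, an activity-regulated miRNA, lay just below Mir652 at 12153 and 10636 CPM, and Mir191 just above Mir151 at 11300 and 14796 CPM.

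Mir324 and Mir330 closed the 20. Mir324 had 26543 and 40242 reads, at 9065 and 11043 CPM in replicates 1 and 2 (10054 ± 1399, SD, n = 2). Mir330 had 26473 and 36240 reads, at 9041 and 9945 CPM (9493 ± 639, SD, n = 2). The ranges of the pair over the libraries overlap. Within replicate 1 their read ratio was 1.003 (exact interval 0.986 to 1.02), and within replicate 2 it was 1.11 (1.09 to 1.13). Both fell outside the first 20 in replicate 1, at ranks 21 and 22, and inside them in replicate 2, at 17 and 20. Neuronal Mir137 stood just above the pair at 9112 and 12631 CPM. Mir330 was the last gene inside the limit of 20, and Mir26b, at 5502 and 13226 CPM, the first outside it (9364 ± 5461, SD, n = 2).

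**Figure D2:**
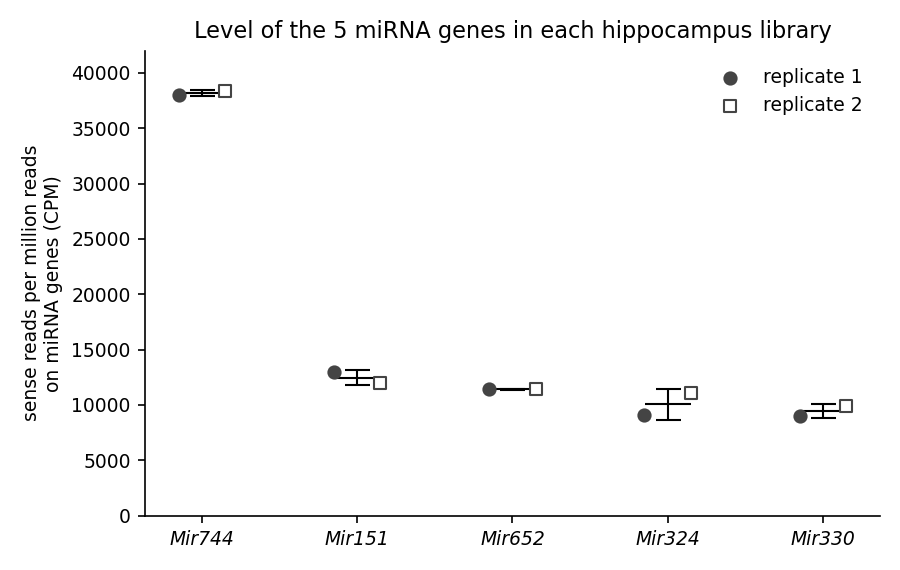
CPM of each gene in replicate 1 (filled circles) and replicate 2 (open squares), with the mean (long line) and SD (error bar) of the 2 libraries. Mir744 was at 37959 and 38364 CPM, and the other 4 genes lay between 9041 and 12986 CPM.

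By number of reads the order Mir744, Mir151, Mir652, Mir324, Mir330 was the same in both libraries. In replicate 1 the order of Mir324 and Mir330 was not resolved, since the interval of their read ratio (1.003, 0.986 to 1.02) includes 1. Mir744 held 3.33 times as many reads as Mir652 in replicate 1 (exact interval 3.29 to 3.37) and 3.36 times in replicate 2 (3.32 to 3.40). Such ratios within a library do not depend on how libraries are scaled. Of the 10 pairs among the 5 genes this one shifted least between the libraries (0.01 on the log2 scale). Mir151 over Mir324 shifted most, with 1.43 times as many reads in replicate 1 and 1.08 times in replicate 2 (0.40 on the log2 scale). Together the 5 genes held 8.04% (exact interval 8.01% to 8.08%) of assigned reads in replicate 1 and 8.27% (8.25% to 8.30%) in replicate 2, and Mir744 alone held 47.2% and 46.4% of these.

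**Figure D3:**
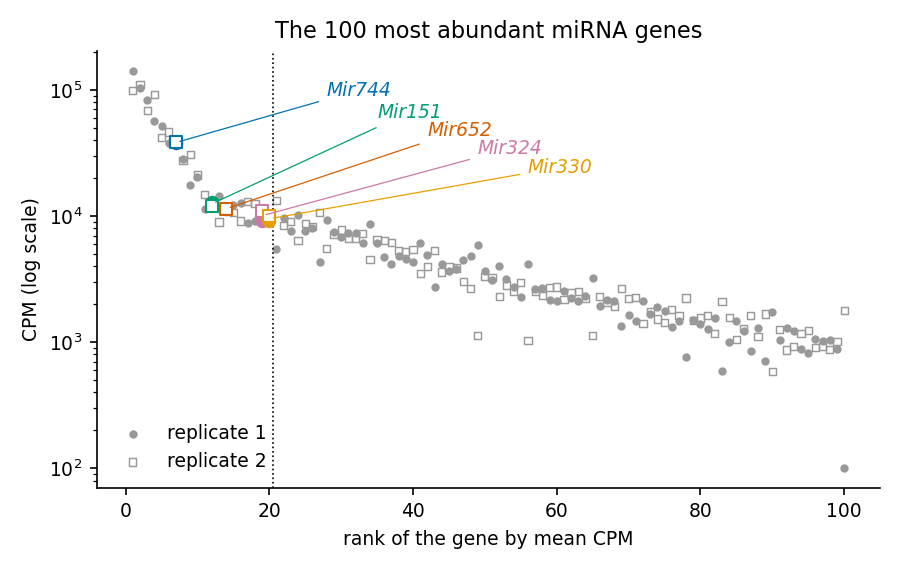
CPM on a log scale of the 100 miRNA genes with the highest mean CPM against their rank, in replicate 1 (filled circles) and replicate 2 (open squares), with the limit of 20 genes as a dotted line. The members, in colour, sit at ranks 7, 12, 14, 19 and 20, and Mir26b just right of the limit is spread from 5502 to 13226 CPM.

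How far the 2 libraries differed was then compared gene by gene, as the ratio of CPM in replicate 1 to that in replicate 2. A two-sided exact binomial test of the reads, adjusted by Benjamini-Hochberg over all 474 genes with at least 10 reads in sum, was used. It takes counting error as the only noise and compares libraries, not conditions. It called 58.0% of all genes tested and 96 of the 100 most abundant, so with this many reads a call says little about size. Of the members 4 of 5 were called: Mir151 was higher in replicate 1, a direction in which 26.4% of all genes were called, and Mir324, Mir330 and Mir744 were higher in replicate 2, as were 31.6% of all genes, though the direction for Mir744 turned under TMM scaling.

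Mir652 was the member without a call, with a ratio of 0.999 (exact 95% interval 0.984 to 1.01, adjusted p = 0.897). The interval is that of the difference itself, and a missed threshold does not show equal levels. Mir744 had a ratio of 0.989 (0.982 to 0.997, adjusted p = 0.0164). The directions for Mir652 and Mir744 depended on the scaling: with edgeR's TMM library sizes the ratios were 1.02 and 1.01, and with Mirlet7g, the most abundant gene, taken out of the totals 1.05 and 1.04, all above 1 and called. Neither gene can therefore be said to be higher in either library.

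Mir324 differed most, at 0.821 (exact interval 0.808 to 0.834, adjusted p = 4.88e-138), lower in replicate 1. Mir330 was at 0.909 (0.895 to 0.924, adjusted p = 2.14e-31). Mir151 was at 1.08 (1.07 to 1.100, adjusted p = 2.41e-30), the member with the higher value in replicate 1. These 3 directions were the same under all 5 other scalings that were run. Their sizes moved: with Mirlet7g taken out of the totals Mir324 was at 0.862, Mir330 at 0.954 and Mir151 at 1.14. The other count filters leave the ratios unchanged and so cannot check direction, and the 3 calls held under them. All 5 members lay within 1.5-fold, as did 12 of the other 15 genes among the 20 and 74 of the 100 most abundant. Over all genes tested, many of them with few reads, 42.4% differed by at least 1.5-fold.

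By size of the difference, Mir652 stood at position 2, Mir744 at 9, Mir151 at 51, Mir330 at 59 and Mir324 at 141 of the 399 genes that averaged 10 reads or more. Among the 100 most abundant genes the positions were 1, 3, 18, 21 and 48. These positions depend on the scaling: over the 399 genes Mir652 stood at 15 and Mir744 at 6 with TMM, and at 32 and 24 with Mirlet7g taken out of the totals. With Mirlet7g taken out, Mir330 stood at 29, ahead of Mir652, while Mir151 stood at 87 and Mir324 at 102. The order of the members by size of the difference thus also depends on the scaling. The median difference was 1.08-fold over the 5 members, 1.31-fold over the other 15 genes among the 20, 1.23-fold over the 100 and 1.34-fold over the 399. The members' largest difference, 1.22-fold for Mir324, was below that median of the other 15. Because stability was known when the genes were grouped and rests on 2 libraries, these values are a description and no test was made. Among 152 genes that averaged 1000 reads or more, the 5 nearest to equal were Mir652, Mir341, Mir300, Mir744 and Mir3099 with sense totals as scale. Of these, only Mir744 and Mir3099 were among the 5 with TMM, and none of these genes was with Mirlet7g taken out of the totals. Mir341 had 1491 and 1493 CPM and Mir300 751 and 753 CPM, and both are genes of the imprinted Dlk1-Dio3 region. Mir3099 had 724 and 732 CPM.

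**Figure D4:**
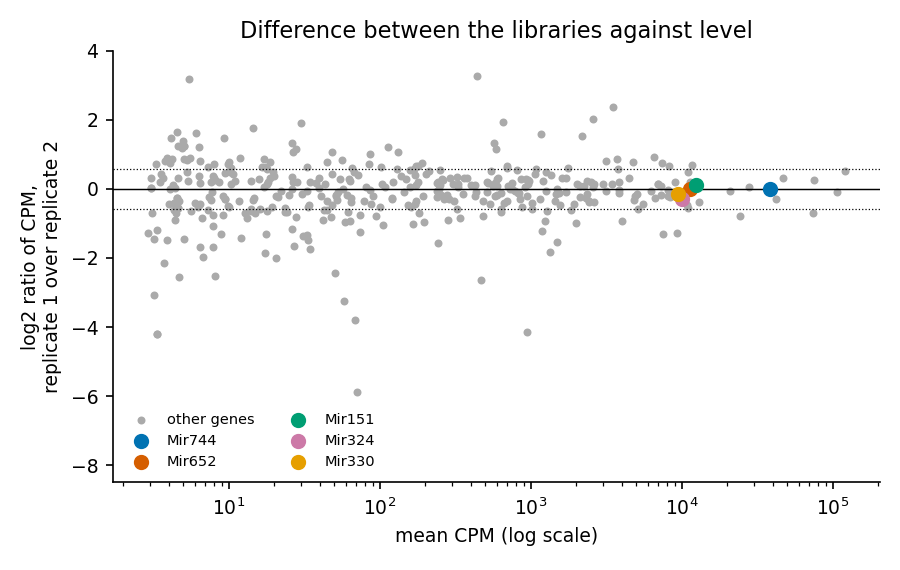
Log2 ratio of CPM, replicate 1 over replicate 2, against mean CPM on a log scale for genes that averaged 10 reads or more and had reads in both libraries, with dotted lines at 1.5-fold. The members, in colour, lie between -0.28 and 0.12, and grey points of other genes at similar levels reach past the dotted lines.

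**Figure D5:**
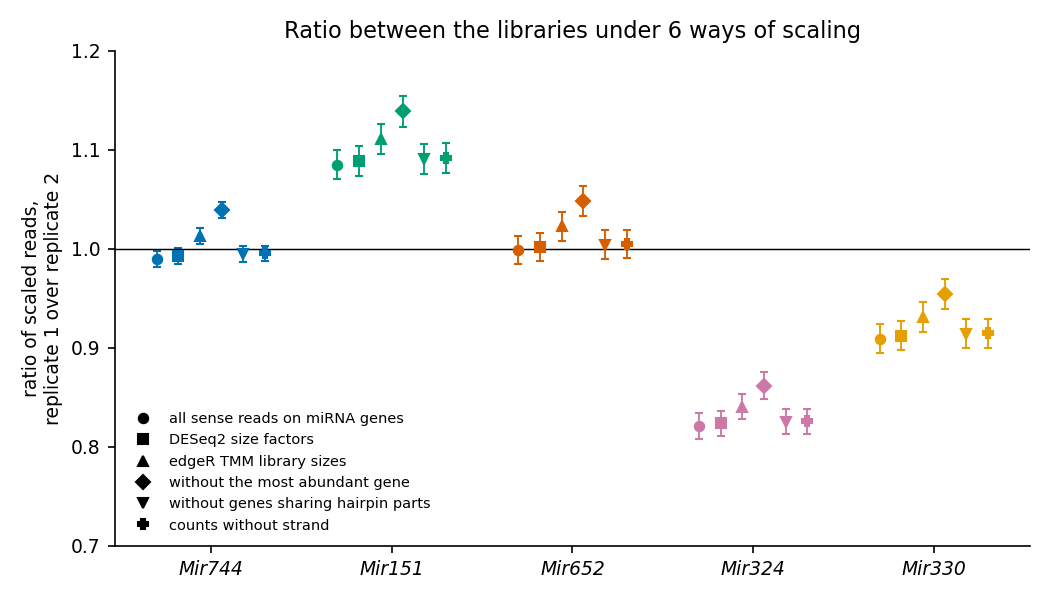
Ratio of scaled reads, replicate 1 over replicate 2, for each member under 6 ways of scaling (symbols), with exact 95% intervals. Mir151 stays above 1 and Mir324 and Mir330 below 1 in every case, while Mir744 and Mir652 lie on either side of 1.

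For comparison, a list of 34 further miRNA genes was examined, such as Mir361 in Chm, Mir30e in Nfyc and Mir93 in Mcm7. It was drawn up for broadly expressed hosts or loci, but breadth of expression was not checked for each host. In the annotation 31 of them lie in a same-strand protein-coding gene. Of the 34, 33 had at least 10 reads in each library. Beside 26.4% and 31.6% of all genes tested, 14 of the 34 were called higher in replicate 1 and 13 in replicate 2. Calls were more frequent among genes with more reads: 214 of the 258 that averaged 100 reads or more were called. Their median log2 ratio was -0.04, beside -0.03 over the 399 genes, and their median difference was 1.33-fold. The 3 most abundant were Mir191, Mir26b and Mir98, with ratios of 0.764, 0.416 and 1.90, all called. Such placement thus went with small and large differences alike: Mir361 had a ratio of 0.949 and Mir107, in Pank1, one of 5.18. Mir107 shares sequence with related hairpins, so its own count is uncertain.

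Of 13 miRNA genes used to scale PCR measurements, all but Mir16-1 and Mir320 are also on the list of 34 above. At least 10 reads in each library were found for 12 of the 13. Beside 26.4% and 31.6% of all genes tested, 3 of the 13 were called higher in replicate 1 and 6 in replicate 2. Their median log2 ratio was -0.07 and 11 lay within 1.5-fold. The most abundant were Mir191, Mir361 and Mir320, with ratios of 0.764, 0.949 and 1.4998. With Mirlet7g taken out of the totals Mir361 was at 0.997, nearer to 1 than Mir652 and Mir744. Of 17 genes found on a list of miRNAs with hosts of neuronal expression, 6 were called higher in replicate 1 and 11 in replicate 2, beside 26.4% and 31.6% of all genes. Of the 11, Mir1298, Mir448, Mir1264 and Mir764 lie in 1 host, the serotonin receptor gene Htr2c, with ratios of 0.0565, 0.105, 0.184 and 0.406. They were higher in the library with the higher choroid plexus sum, and the part of that tissue was not tested. The median log2 ratio of the list was -0.68 and the median difference 1.72-fold, with Mir139 (ratio 0.622), Mir382 (1.40) and Mir128-1 (0.407, part of its hairpin shared) at the head. On that list Mir382 has no protein-coding host in the annotation, and Mir7-1 lies in Hnrnpk, a gene that is not restricted to neurons. Mir338 (ratio 1.51) on the same list is also one of the oligodendrocyte markers above.

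Mir151 belongs to the mir-28 family with Mir28a and Mir708. Mir708, in an intron of Tenm4, was at 2632 ± 174 CPM and Mir28a, in an intron of Lpp, at 1081 ± 303 CPM (SD, n = 2), below Mir151. All 3 were called higher in replicate 1, beside 26.4% of all genes, with ratios of 1.08 for Mir151, 1.098 for Mir708 and 1.495 for Mir28a. Parts of the hairpins of Mir708 and Mir28a are shared with other miRNA genes, so their counts are less certain. Mir28c had 2 and 1 reads and Mir28b none in either library.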

How the data were processed

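The deposited files hold counts, whole numbers of reads per miRNA gene that are not normalized, in 3 columns without a header. The first was taken as unstranded, the stranded one of larger total as sense and the last as antisense. Per the deposited file notes, the assembly was mm10 and the annotation GENCODE M21. The aligner is not given in the sources used here. Entries without a gene name were left out, and they made up 69.5% of the table in replicate 1 and 65.3% in replicate 2. Among them, reads with no place in the genome made up 26.8% of the table in replicate 1 and 14.7% in replicate 2. The part of that difference in the ratios between libraries was not tested. Reads of CAST/EiJ chromosomes were counted on mm10, and the effect on these hairpins was not tested.

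Sense counts were divided by the library's sense total over all 2202 genes to give CPM. Ratios were tested by exact binomial tests, two-sided, with the library totals as the expected split, and adjusted over all 474 genes (threshold 0.05). Intervals are exact, at 95%, and cover counting error only; whether molecular identifiers were used is not given in the sources used here. With 2 libraries no exact test over samples can reach 0.05. On counts simulated with counting error as the only noise (471 genes tested), the test recovered 94.7% of 94 genes changed 2-fold. The changed genes were drawn from those with more reads than the limit for testing. That rate checks the calculation and does not carry over to the real libraries, which differ by more than counting error. The libraries differed by more than sampling noise (chi-square 390 times its degrees of freedom), so they are not 1 library deposited again; whether they are technical repeats was not tested.

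Hosts are protein-coding genes of GENCODE M21 that contain the hairpin on the same strand. Hairpins were divided at the middle to look for stretches of 20 bases shared with other miRNA genes. Folding used RNAfold 2.7.2. Alternatives were edgeR 4.0.16 TMM and DESeq2 1.42.0 size factors, other totals, filters and the counts without strand. Besides the members, the genes named are rank neighbours, the genes nearest to equal, seed sharers, and the 3 most abundant of each list. Mir107, Mir301, Mir7-1, Mir30e, Mir93, Mir3059 and further list members were picked for naming with their values in view. The members and lists were chosen with earlier results of these data known. Software was R 4.3.3, Python 3.11.15, matplotlib 3.10.9, scipy 1.17.1, pandas 2.3.3 and numpy 2.4.6.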

Additional observations from a re-analysis of the deposited data

How the results depend on the processing

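Levels moved with the total used. With counts without strand, the means were 41222 CPM for Mir744, 13481 for Mir151, 12322 for Mir652 and 10253 for Mir330, and the summed share 8.81%. With Mirlet7g, the most abundant gene, taken out of the totals they were 43407, 14209, 12976 and 10787 CPM, and the share 9.28%. With totals that leave out genes sharing both hairpin parts, Mir744 was at 38524 and Mir652 at 11515 CPM. Leaving out either replicate gave the range of the single libraries: 37959 to 38364 CPM for Mir744, 11970 to 12986 for Mir151, 11399 to 11414 for Mir652, 9065 to 11043 for Mir324, 9041 to 9945 for Mir330, and 8.04% to 8.27% for the share. The ratio of Mir652 turned above 1 with counts without strand (1.0045), TMM (1.02), DESeq2 size factors (1.002), totals without the most abundant gene (1.05) and totals without genes sharing both parts (1.0041). That of Mir744 turned above 1 with TMM (1.01) and without the most abundant gene (1.04), and its call was lost with counts without strand (0.995), DESeq2 size factors (0.9925) and totals without genes sharing both parts (0.995). These turns follow from the totals, since Mir744 and Mir652 have the same reads under each. Genes called numbered 214 to 274 under the alternatives, against 275 of 474 tested. The number tested changed with the filter: 214 of 258 were called at a mean count of at least 100, and 263 of 723 with no filter. By size of the difference, with TMM 3.51% of genes differed less than Mir652, 16.3% less than Mir151 and 11.03% less than Mir330, and with a mean count of at least 100, 42.6% less than Mir324 and 19.0% less than Mir330. No paired analysis was possible because the samples form 1 group. With 2 libraries, the SDs rest on 1 difference each.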
